A study of Mus musculus with 17 samples.

Results

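The transcripts examined were those of 9 genes of the Fc gamma receptor and immunoreceptor tyrosine-based activation motif (ITAM) pathway. They were chosen by symbol from the 24453 gene models of the deposited expression table, and each symbol matched 1 model. The genes are the activating receptors Fcgr1, Fcgr3 and Fcgr4, the inhibitory receptor Fcgr2b, the adaptors Fcer1g (the common gamma chain) and Tyrobp (DAP12), the triggering receptors Trem1 and Trem2, and the kinase Syk.

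Fc gamma receptors bind the constant part of immunoglobulin G and let macrophages take up antibody-coated particles. The activating receptors signal through the gamma chain encoded by Fcer1g, whereas TREM receptors signal through DAP12. Phosphorylated ITAMs of either adaptor recruit Syk, and Fcgr2b opposes this signal through an inhibitory motif of its own.

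The values came from polyA RNA-seq of 13 libraries of mouse macrophages. The iBMDMs, macrophages grown from bone marrow and then immortalised, were a C57Bl/6EiJ line at passage 3 to 8, labelled male, that carried BRAF(V600E), Myc and Cas9. They were infected with lentivirus holding 2 guides to Atf3, Jun or Jund, or a scramble control, and sorted on the viral reporter as pools of infected cells, so that a group is an edited pool of 1 line rather than a clone or an animal. The groups Scramble (zsGreen in the titles), Atf3KO, JunKO and JunDKO held 2 vehicle-treated libraries each. All 4 groups share the oncogenes, Cas9 and a lentivirus. Thioglycollate-elicited macrophages (TGEMs) are primary peritoneal cells, collected 3 days after injection from mice given in the methods as males of 8 weeks, and received vehicle or Kdo2 lipid A (KLA), an agonist of TLR4, for 1 h. There was 1 vehicle and 1 KLA library of C57Bl/6EiJ, and for Balb/cJ there was 1 vehicle library beside 2 with KLA. The labels do not say that replicates came from separate cultures or mice, so p-values measure the spread between these libraries.

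Depth, recovered from the steps of the RPKM values, was 1553296 to 18444438 reads. Atf3KO libraries held reads in the fewest models, 10425 and 10631, at 4397164 and 7236838 reads. Scramble libraries held reads in 12207 and 12491 models at 1929988 and 1711541 reads. The chi-square per degree of freedom between replicates, which grows with depth, was 27.59 in Atf3KO and 3.67 to 4.01 in the other iBMDM groups. The part of this in the Atf3KO results was not tested. The 10 macrophage markers checked, Csf1r and Adgre1 among them, were each above 0 in at least 1 library of both kinds of macrophage. All libraries are labelled male, but the 5 TGEM libraries held 863 to 8676 reads of Xist and no read of Ddx3y, whereas the iBMDM libraries held 130 to 2612 reads of Ddx3y. Of the targeted genes, Atf3 was at 154 and 169 RPKM (reads per kilobase of exon, scaled to library depth) in Atf3KO and at 80.7 and 77.4 in Scramble. Jun was at 26.2 and 20.5 in JunKO and at 17.6 and 18.5 in Scramble, and Jund at 6.94 and 6.07 in JunDKO and at 9.19 and 8.33 in Scramble. The transcripts of Atf3 and Jun were thus not lower in the pools that carry their guides. Atf3 in Atf3KO was higher (limma-trend adjusted p = 0.0024), as was Jund there, at 22.6 and 83.0 (adjusted p = 0.01). The paper reports knockout on protein by western blot, and far fewer Jun binding sites in its Jun knockout line. A frameshift need not lower a transcript, and the groups are named here as the labels name them. All iBMDM libraries carry 1 date except Atf3KO replicate 2, and the Scramble libraries are the controls of all 3 knockouts, so these comparisons are not independent.

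The genes lie at 5 loci (GRCm38, the build called mm10). Fcgr2b, Fcgr4, Fcgr3 and Fcer1g lie in that order within 273791 bases of chromosome 1, at chr1:170960559-170976071 (minus strand), chr1:171018926-171029761 (plus), chr1:171051169-171059403 (minus) and chr1:171229572-171234349 (minus). Trem1 (chr17:48232739-48246924, plus) and Trem2 (chr17:48346401-48352276, plus) lie 99477 bases apart. Fcgr1 lies at chr3:96282909-96293969 (minus), Tyrobp at chr7:30413788-30417579 (plus) and Syk at chr13:52583437-52648792 (plus). Reads were counted over exons, and no other model overlapped any of the 9. Fcgr2b and Fcgr3 shared 12.2% and 12.7% of the 50-base words of their transcripts, so reads of the shared stretches could have been split between them, and no other member shared any.

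RefSeq promoter windows (GRCm38.p6, 250 bases before to 50 after a transcript start) were found for 8 of the 9 genes. The windows of 6 genes whose levels differed between groups are shown, each read along the strand of its gene. Fcgr1 (chr3:96293920-96294219, minus strand) is the Fc gamma receptor with the largest fold between TGEM vehicle and Scramble among the 4. Fcgr3 (chr1:171059354-171059653, minus) and Fcgr2b (chr1:170976022-170976321, minus) are a neighbouring activating and inhibitory pair. Fcer1g (chr1:171234300-171234599, minus) is the gene called in Atf3KO. Trem1 (chr17:48232489-48232788, plus) and Trem2 (chr17:48346151-48346450, plus) differed in opposite directions in JunDKO. Capitals mark GAGGAA (a core of sites of ETS factors such as PU.1) and TTCNNNGAA (the gamma-activated site of STAT factors), searched on both strands.
Fcgr1: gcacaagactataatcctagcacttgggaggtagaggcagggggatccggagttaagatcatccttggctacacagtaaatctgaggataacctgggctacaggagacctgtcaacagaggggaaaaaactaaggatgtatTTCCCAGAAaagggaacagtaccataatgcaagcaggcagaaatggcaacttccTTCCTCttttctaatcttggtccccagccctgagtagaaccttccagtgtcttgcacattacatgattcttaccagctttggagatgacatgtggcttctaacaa
Fcgr3: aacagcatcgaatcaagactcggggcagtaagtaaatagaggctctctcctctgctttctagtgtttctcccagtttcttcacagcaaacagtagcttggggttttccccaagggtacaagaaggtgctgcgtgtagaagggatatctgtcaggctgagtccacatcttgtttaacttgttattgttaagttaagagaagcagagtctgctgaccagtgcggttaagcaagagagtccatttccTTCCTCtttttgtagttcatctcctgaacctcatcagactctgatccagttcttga
Fcgr2b: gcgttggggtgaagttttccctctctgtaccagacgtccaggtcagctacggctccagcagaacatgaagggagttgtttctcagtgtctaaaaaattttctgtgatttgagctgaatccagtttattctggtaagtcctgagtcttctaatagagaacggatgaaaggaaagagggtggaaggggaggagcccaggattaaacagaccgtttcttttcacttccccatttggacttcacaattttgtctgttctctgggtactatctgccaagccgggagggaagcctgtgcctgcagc
Fcer1g: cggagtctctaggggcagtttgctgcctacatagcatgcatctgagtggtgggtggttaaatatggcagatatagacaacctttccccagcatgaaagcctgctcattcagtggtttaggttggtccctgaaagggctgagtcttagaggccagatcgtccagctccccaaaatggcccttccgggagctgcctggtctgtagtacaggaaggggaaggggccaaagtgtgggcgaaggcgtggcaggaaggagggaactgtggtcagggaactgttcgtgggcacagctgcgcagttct
Trem1: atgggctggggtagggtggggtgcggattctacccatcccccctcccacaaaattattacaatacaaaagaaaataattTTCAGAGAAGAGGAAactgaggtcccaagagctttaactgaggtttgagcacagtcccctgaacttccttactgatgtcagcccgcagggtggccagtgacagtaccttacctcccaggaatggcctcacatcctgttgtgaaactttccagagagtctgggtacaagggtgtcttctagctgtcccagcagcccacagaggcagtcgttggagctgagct
Trem2: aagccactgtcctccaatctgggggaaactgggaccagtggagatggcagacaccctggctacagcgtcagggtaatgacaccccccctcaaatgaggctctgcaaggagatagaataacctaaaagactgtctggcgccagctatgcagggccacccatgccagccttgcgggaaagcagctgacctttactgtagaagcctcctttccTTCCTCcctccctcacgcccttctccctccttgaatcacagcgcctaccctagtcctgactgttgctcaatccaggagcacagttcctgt

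GAGGAA was present in a window of 6 of the 8 genes (Fcgr1, Fcgr3, Fcgr4, Syk, Trem1 and Trem2) and in 28.3% of the 32851 windows of the table. Genes were counted if any window matched, whereas the share is of windows. Fcgr3 and Syk have 2 windows each. Both of Fcgr3 matched, with window 2 shown above, and of Syk only window 2. TTCNNNGAA was present in Fcgr1 and Trem1, and in 8.3% of all windows. In Trem1 both motifs stand side by side with no overlap and give a single run of capitals. The AP-1 motif TGACTCA, the reverse complement of TGAGTCA, and the cAMP response element TGACGTCA were searched in the same way and matched in 0 of the 8 genes, against 5.2% and 1.79% of all windows. A match says only that these letters are in the window.

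Tyrobp was the most abundant of the 9 transcripts per length in all libraries except those of Atf3KO, where Fcer1g was. In Scramble, Tyrobp measured 722 and 507 RPKM and ranked 41 and 53 among all models, Fcer1g measured 413 and 378, and Trem2 measured 299 and 226. These 3 genes and Fcgr3, at 157 and 123, did not overlap. Syk (55.2 and 54.4), Fcgr1 (54.0 and 53.2), Fcgr2b (49.7 and 48.6) and Fcgr4 (51.7 and 45.1) were close together, and Fcgr2b and Fcgr4 overlapped. Trem1 was the lowest, at 9.95 and 10.1. The plot of the levels by library gives the 9 genes in all groups.

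**Figure D1:**
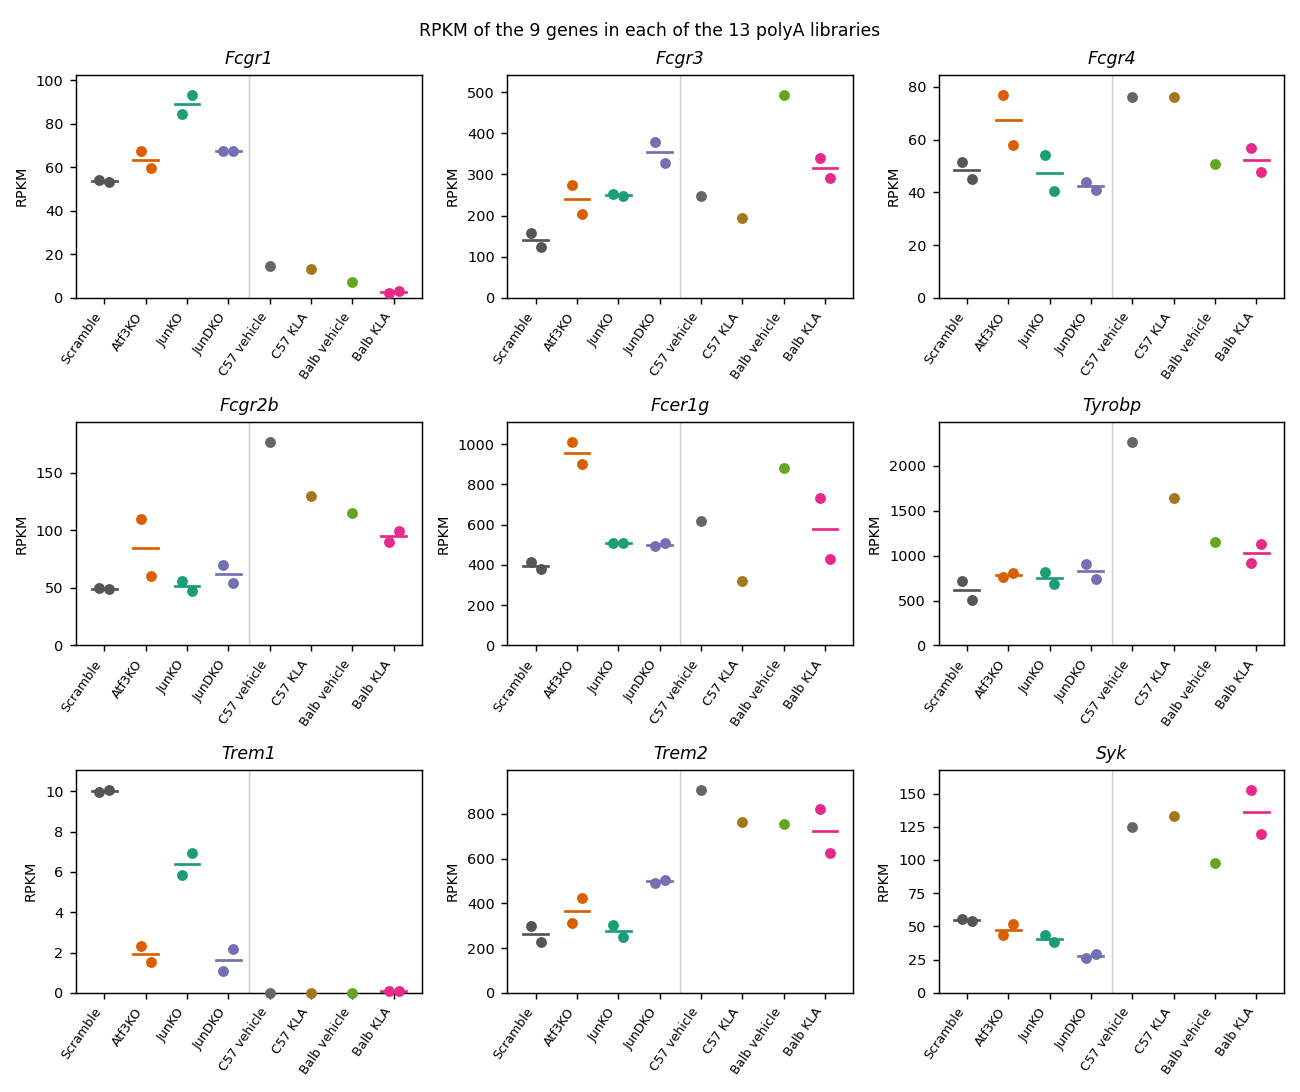
RPKM (y axis, from 0) of each of the 9 genes in each polyA library by group (x axis, C57 is C57Bl/6EiJ and Balb is Balb/cJ). Points are libraries and lines are group means where a group has 2 libraries. Fcgr1 and Trem1 were highest in the iBMDM libraries, Trem2 and Syk in the TGEM libraries, and Fcer1g reached 1009 and 903 in Atf3KO.

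Pools targeted for each of 3 AP-1 genes were compared with Scramble to see which transcripts of the pathway differed. Folds are ratios of mean RPKM. In Atf3KO, Fcer1g was 2.42-fold and Fcgr3 1.70-fold higher and Trem1 was 5.21-fold lower than in Scramble. In JunDKO, Fcgr3 was 2.52-fold and Trem2 1.90-fold higher, whereas Trem1 was 6.18-fold and Syk 1.96-fold lower. In JunKO no member passed the test as fitted. A gene was called at a Benjamini-Hochberg adjusted p under 0.05 over all genes tested, at least 2-fold on the log2(RPKM + 1) scale and at least 16 RPKM in either group, and is said to have differed when the adjusted p alone was under 0.05.

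In Atf3KO 1 of the 9 genes was called, against 12.5% of the 10691 genes tested, and 3 differed, against 41.2% of all. In JunDKO 1 was called, against 4.97%, and 4 differed, against 11.7%. In JunKO 0 were called by limma-trend, against 0.196% of all, and 0 differed, against 0.281%. 4 of the 9 had an unadjusted p under 0.05 there, and limma-voom on recovered reads also called 0. The shares among the members in JunDKO stood above those of all genes, and for genes with an adjusted p under 0.05 in Atf3KO below it. These shares were not tested.

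Between knockouts, JunDKO against JunKO had 0 of 9 genes called (3.5% of all) and 1 that differed (8.14% of all). JunDKO against Atf3KO had 0 called (12.2%) and 3 that differed (40.7%), and Atf3KO against JunKO had 0 called (9.71%) and 3 that differed (35.5%). limma-voom also called 0 in each, and 5, 4 and 4 genes had an unadjusted p under 0.05. The median log2 difference of all genes was 0.23 in JunDKO over Scramble, 0.05 in Atf3KO and 0.01 in JunKO, so levels in JunDKO stood higher in general. The plot of differences from Scramble shows the members one by one.

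**Figure D2:**
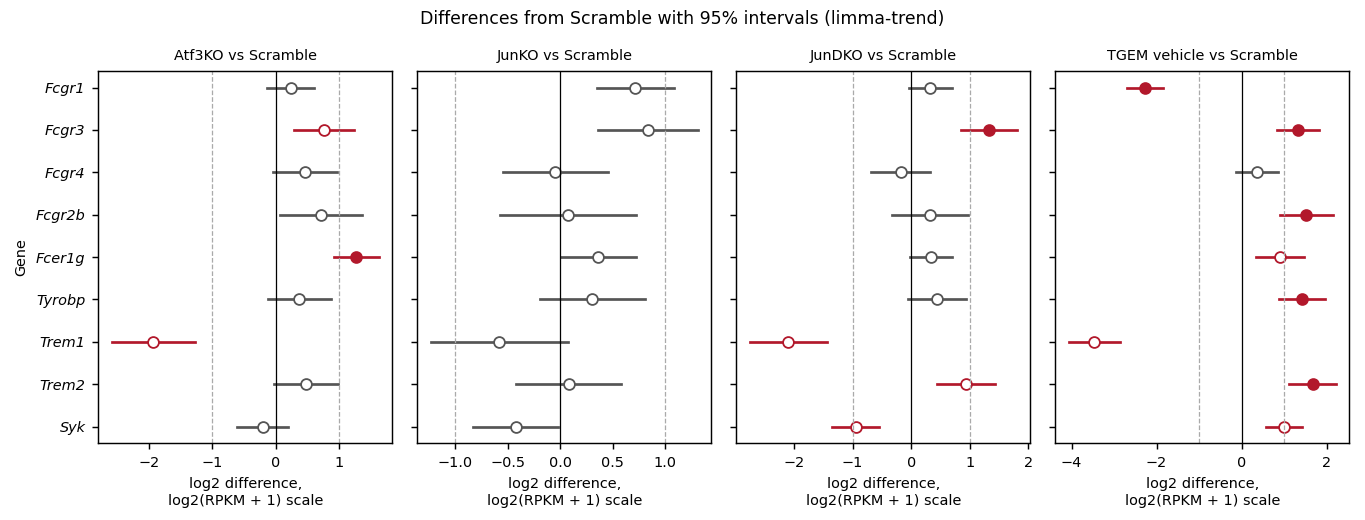
Difference from Scramble in log2(RPKM + 1) (x axis) with its 95% interval for each of the 9 genes (y axis) in 3 knockouts and in TGEM vehicle libraries. The x axis differs between panels. Red marks an adjusted p under 0.05, filled points are genes called, and dashed lines mark 2-fold. Trem1 lay below 0 in all 4 panels.

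Fcgr3, the low-affinity activating receptor known as CD16, measured 157 and 123 RPKM in Scramble. It reached 275 and 204 in Atf3KO, 253 and 248 in JunKO, and in the JunDKO pools 379 and 329. All 6 knockout libraries stood above both Scramble libraries, and those of JunDKO above all others. The log2 difference from Scramble was 1.33 ± 0.21 in JunDKO (SE, 2 libraries a group, adjusted p = 0.00521 by limma-trend), 0.76 ± 0.21 in Atf3KO (adjusted p = 0.0204, 0.0061 to 0.137 over the alternatives) and 0.84 ± 0.21 in JunKO (adjusted p = 0.245). Without Scramble replicate 2 the value in Atf3KO was 0.58 (adjusted p = 0.137), and without Atf3KO replicate 1 it was 0.55 (adjusted p = 0.0676). The call in JunDKO was lost without Scramble replicate 2 (1.16, adjusted p = 0.0535) and without JunDKO replicate 1 (1.23, adjusted p = 0.0696). Its adjusted p ranged from 0.000912 to 0.0696 over the alternatives tried. Setting all libraries to equal medians lowered the difference to 1.06, which was still called.

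Fcgr1, the high-affinity receptor CD64, measured 54.0 and 53.2 RPKM in Scramble, 67.5 and 59.5 in Atf3KO, 84.5 and 93.4 in JunKO, and in the JunDKO pools 67.3 and 67.4. Both JunKO libraries were the highest of the 8 and both Scramble libraries the lowest. The difference of JunKO from Scramble, 0.72 ± 0.16 (SE), did not pass the test (limma-trend adjusted p = 0.189, 0.0459 to 0.639 over the alternatives, the lowest with the GC trend removed), and neither did that of Atf3KO (0.24 ± 0.16, adjusted p = 0.259) or JunDKO (0.32 ± 0.16, adjusted p = 0.233). Fcgr1 differed between Atf3KO and JunKO (-0.48, adjusted p = 0.0484), and its adjusted p was above 0.05 without any 1 library other than Atf3KO replicate 1, at up to 0.197.

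Fcgr4, the activating receptor that binds mouse IgG2a and IgG2b, measured 51.7 and 45.1 RPKM in Scramble, 77.0 and 57.9 in Atf3KO, 54.3 and 40.4 in JunKO, and in the JunDKO pools 44.0 and 41.0. The Atf3KO libraries were the highest of the 8 and the other groups overlapped in part. No difference from Scramble passed, with 95% intervals of -0.04 to 0.96 in Atf3KO, -0.54 to 0.45 in JunKO and -0.68 to 0.32 in JunDKO. With each library's GC trend removed, the Atf3KO difference was 0.62 (limma-trend adjusted p = 0.0302). JunDKO was lower than Atf3KO (-0.64, limma-trend adjusted p = 0.0456), with an adjusted p above 0.05 without either library of Scramble or JunDKO or without Atf3KO replicate 1, at up to 0.188.

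The inhibitory receptor Fcgr2b measured 49.7 and 48.6 RPKM in Scramble, 110 and 60.0 in Atf3KO, 56.3 and 47.6 in JunKO, and in the JunDKO pools 69.6 and 54.5. The Atf3KO replicates were the most unequal pair of the gene, and JunKO overlapped Scramble. The differences from Scramble were 0.71 ± 0.28 in Atf3KO (SE, limma-trend adjusted p = 0.0737), 0.07 ± 0.28 in JunKO and 0.32 ± 0.28 in JunDKO. Without Atf3KO replicate 2, the library of another date, Fcgr2b was called in Atf3KO at 1.14, and without replicate 1 the difference was 0.28. With the GC trend removed it was 0.94 (adjusted p = 0.016), short of 2-fold.

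The balance of activating to inhibitory transcripts differed between groups as a description. Fcgr3 over Fcgr2b was 3.17 and 2.54 in Scramble, 2.50 and 3.40 in Atf3KO, 4.50 and 5.20 in JunKO, and in the JunDKO pools 5.45 and 6.03. The JunKO and JunDKO libraries stood above the other iBMDM libraries, and Atf3KO overlapped Scramble. Fcgr3 made up 50.3% and 45.6% of the summed RPKM of the 4 Fc gamma receptors in Scramble, and 67.7% and 66.9% in JunDKO. These ratios compare levels per length and were not tested.

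**Figure D3:**
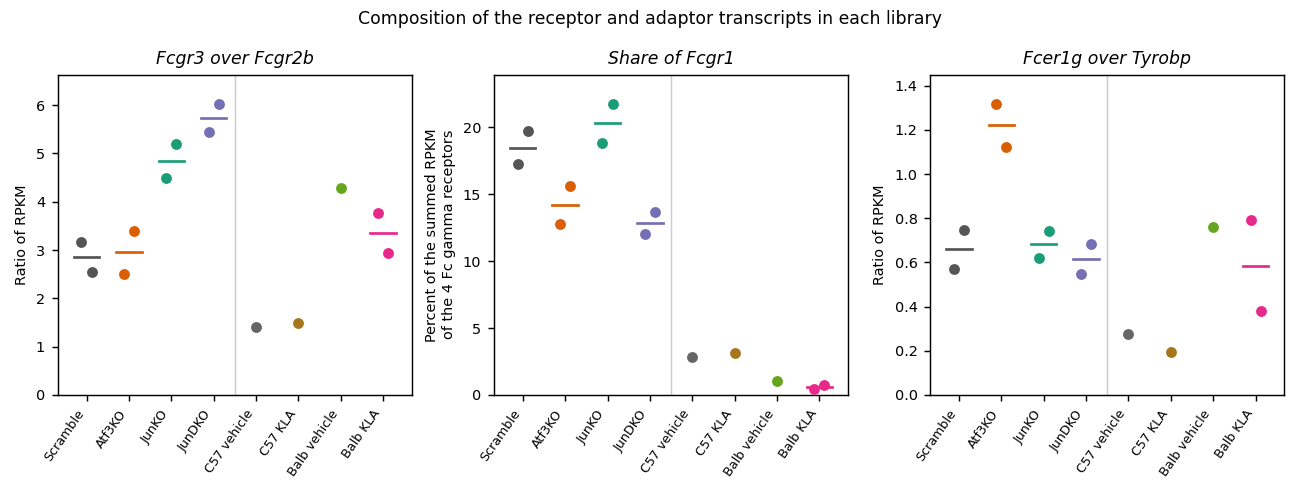
Fcgr3 RPKM over Fcgr2b RPKM (left), the percent of the summed RPKM of the 4 Fc gamma receptors held by Fcgr1 (middle), and Fcer1g RPKM over Tyrobp RPKM (right), with 1 point for each library by group and lines for means of 2 libraries. Fcgr3 over Fcgr2b was 5.45 and 6.03 in JunDKO against 1.40 and 1.49 in the C57Bl/6EiJ TGEM libraries.

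Fcer1g, which the activating Fc receptors need for signalling and surface expression, measured 413 and 378 RPKM in Scramble, 1009 and 903 in Atf3KO, 511 and 508 in JunKO, and in the JunDKO pools 492 and 508. Both Atf3KO libraries stood far above the other 6, and those of JunKO and JunDKO lay close above Scramble. The log2 difference of Atf3KO from Scramble was 1.27 ± 0.15 (SE, 2 libraries a group, adjusted p = 0.00108 by limma-trend). It was called in 20 of 21 alternatives, all but the limit of a log2 difference of 2, with an adjusted p of 0.000239 to 0.0141. Atf3KO was also higher than JunKO (0.90, adjusted p = 0.00478), and JunDKO was lower than Atf3KO (-0.93, adjusted p = 0.00273). The differences of JunKO (0.37, adjusted p = 0.617) and JunDKO (0.34, adjusted p = 0.201) from Scramble did not pass.

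Tyrobp, the adaptor of TREM receptors, measured 722 and 507 RPKM in Scramble, 764 and 804 in Atf3KO, 822 and 683 in JunKO, and in the JunDKO pools 903 and 745. JunKO overlapped Scramble, and the Scramble replicates were the farthest apart. No difference from Scramble passed, with 95% intervals of -0.13 to 0.87 in Atf3KO, -0.19 to 0.81 in JunKO and -0.06 to 0.94 in JunDKO. The Atf3KO difference of 0.37 became -0.03 with the GC trend removed. Fcer1g over Tyrobp was 1.32 and 1.12 in Atf3KO, and between 0.195 and 0.792 in the other 11 libraries.

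Trem1, a receptor that amplifies inflammatory responses, measured 9.95 and 10.1 RPKM in Scramble, 2.33 and 1.51 in Atf3KO, 5.83 and 6.96 in JunKO, and in the JunDKO pools 1.07 and 2.17. The groups did not overlap except Atf3KO and JunDKO, and Scramble was the highest. These levels rest on 58 and 52 reads in Scramble, 31 and 33 in Atf3KO, 30 and 36 in JunKO, and in the JunDKO pools 5 and 121. The 5 reads of JunDKO replicate 1 give an exact 95% interval of 0.346 to 2.49 RPKM, which covers counting error only. With reads pooled within groups, Scramble was 5.49-fold higher than Atf3KO (exact 95% interval 4.00 to 7.59) and 4.79-fold higher than JunDKO (3.68 to 6.24). These intervals also cover counting error only, not the spread between libraries, and 121 of the 126 pooled JunDKO reads come from replicate 2. Atf3KO and JunDKO are therefore not ordered by these values. The log2(RPKM + 1) difference from Scramble was -1.93 ± 0.29 in Atf3KO (SE, limma-trend adjusted p = 0.00217) and -2.10 ± 0.29 in JunDKO (adjusted p = 0.0029). It stayed below the limit of 16 RPKM in every group and so could not be called. Without that limit it was called in both. Over the alternatives the adjusted p was 0.000403 to 0.0213 in Atf3KO and 0.000723 to 0.0339 in JunDKO. The difference of JunKO from Scramble, -0.58 ± 0.29 (SE), did not pass (adjusted p = 0.716), whereas Atf3KO (-1.35, adjusted p = 0.00984) and JunDKO (-1.53, adjusted p = 0.0157) were each lower than JunKO. The adjusted p of the former was above 0.05 without Atf3KO replicate 2 or JunKO replicate 2, at up to 0.069, and the latter without either JunKO library or JunDKO replicate 1, at up to 0.127.

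Trem2, a lipid-binding receptor of resident and repair macrophages, measured 299 and 226 RPKM in Scramble, 312 and 423 in Atf3KO, 302 and 250 in JunKO, and in the JunDKO pools 494 and 505. The JunDKO libraries stood above the other 6 and JunKO overlapped Scramble. The difference of JunDKO from Scramble was 0.94 ± 0.22 (SE, limma-trend adjusted p = 0.0288), short of 2-fold. Its adjusted p was above 0.05 without any 1 library of Scramble, JunKO or JunDKO, at 0.0562 to 0.183. It was 0.66 (adjusted p = 0.092) at equal library medians and 1.12 (called) after quantile normalization. The difference of Atf3KO, 0.48 ± 0.22, did not pass (adjusted p = 0.108) and turned to -0.16 once each library's GC trend was removed. Trem2 had the highest GC content of the 9 transcripts, 57.7%, and across the genes tested the Atf3KO difference rose with GC content with a Spearman rank correlation of 0.50, a description over genes that are not independent.

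Between Trem1 and Trem2 lie further genes of the TREM family. Trem3, a DAP12-coupled relative 805 bases from Trem1, measured 10.9 and 10.1 RPKM in Scramble, 15.9 and 12.3 in Atf3KO, 14.1 and 20.2 in JunKO, and in the JunDKO pools 3.09 and 2.81. Both JunDKO libraries were the lowest of the 8. Trem3 was lower in JunDKO than in Scramble (-1.54, limma-trend adjusted p = 0.0048), and its difference in Atf3KO was 0.38 (adjusted p = 0.215). Treml4 measured 7.27 and 3.42 RPKM in Scramble and 3.01 and 0.951 in JunDKO (-1.11, adjusted p = 0.212). Along the locus, Trem1 and Trem3 were thus lower and Trem2 higher in JunDKO, whereas in Atf3KO Trem1 alone of these 3 differed.

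**Figure D4:**
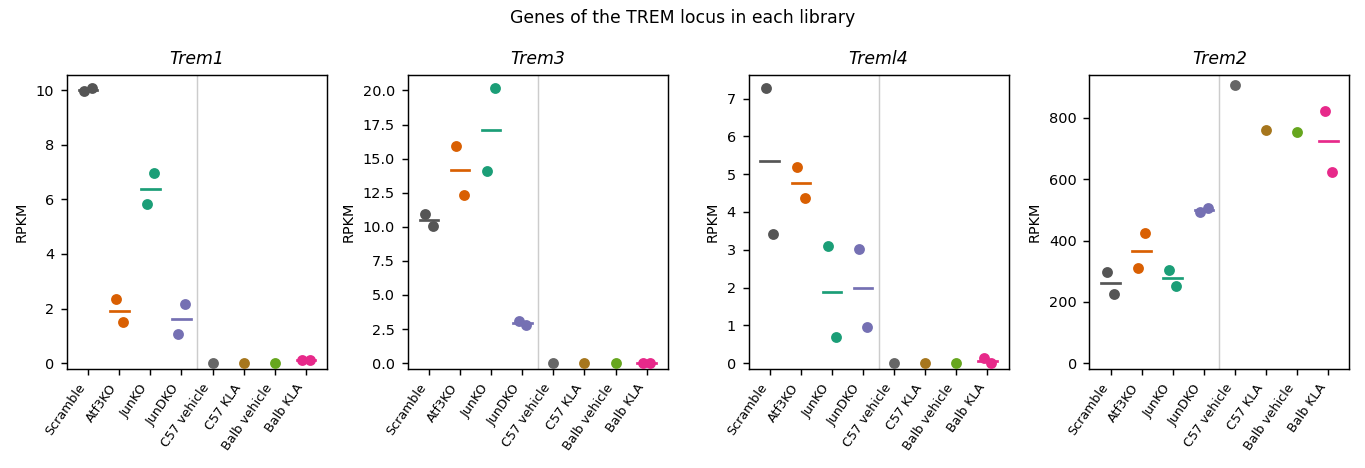
RPKM (y axis) of 4 genes of the TREM locus, in their order on chromosome 17, in each polyA library by group (x axis). Points are libraries and lines are means of 2 libraries. Trem1 and Trem3 lay at or below 3.09 in JunDKO and at or below 0.115 in all TGEM libraries, whereas Trem2 was 494 and 505 in JunDKO.

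Syk, the kinase that docks on phosphorylated ITAMs, measured 55.2 and 54.4 RPKM in Scramble, 43.4 and 51.8 in Atf3KO, 43.3 and 38.1 in JunKO, and in the JunDKO pools 26.6 and 29.2. All 6 knockout libraries lay below Scramble, and those of JunDKO below all others. Syk was lower in JunDKO than in Scramble (-0.95 ± 0.17, SE, limma-trend adjusted p = 0.011), just short of 2-fold, and lower than in Atf3KO (-0.75, adjusted p = 0.0116, and 0.0738 and 0.051 without JunDKO replicates 1 and 2). Against Scramble it was called with library medians made equal (-1.23) and with quantile normalization (-1.11). Its adjusted p was above 0.05 when any Scramble or JunDKO library was left out, at 0.0684 to 0.102. The differences of JunKO (-0.42, adjusted p = 0.603) and Atf3KO (-0.21, adjusted p = 0.367) did not pass, but that of Atf3KO did with the GC trend removed (-0.48, adjusted p = 0.0182).

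Other genes of the pathway were read from fixed lists. Of 13 other Fc receptors 4 were tested in iBMDMs, and Fcrls, an Fc receptor-like scavenger gene, rose in all 3 knockouts. Its level was 9.68 and 4.72 RPKM in Scramble, 110 and 84.9 in Atf3KO, 38.8 and 28.3 in JunKO, and in the JunDKO pools 212 and 187. The 4 groups did not overlap. Its log2 difference was 4.68 in JunDKO (limma-trend adjusted p = 0.000101), 3.64 in Atf3KO (adjusted p = 0.000278) and 2.13 in JunKO (adjusted p = 0.0449). Fcgrt, the neonatal Fc receptor that recycles immunoglobulin G, rose in JunDKO from 4.88 to 16.6 RPKM (1.56, adjusted p = 0.00846). None of the 4 fell.

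Among other receptors coupled to ITAM adaptors or with a hemITAM (a short ITAM-like motif in the receptor itself), 16 were tested. In JunDKO 0 rose, 4 fell and 12 were not called (25.0% called, against 4.97% of all genes), with a median log2 difference of -1.70 against 0.23 over all genes. Cd300e fell from 46.2 to 0.611 RPKM (limma-trend adjusted p = 8.77e-06), Clec4e (Mincle, a gamma-chain coupled glycolipid receptor) from 180 to 40.4 (adjusted p = 0.00145), Cd300ld from 200.0 to 54.6 (adjusted p = 0.000925) and Clec5a (a DAP12-coupled lectin) from 40.2 to 15.7 (adjusted p = 0.0161). In Atf3KO 0 rose, 3 fell and 13 were not called (18.8% called, against 12.5% of all genes), with a median of -0.68 against 0.05. Clec7a (Dectin-1, the beta-glucan receptor) fell from 45.0 to 13.2 RPKM (adjusted p = 0.00263), Clec4e from 180 to 55.1 (adjusted p = 0.00216) and Clec4d from 419 to 159 (adjusted p = 0.00249). In JunKO 0 of 16 were called, with a median of -0.41. CD300 and C-type lectin genes belong to families. Sequence shared within them was not measured here, so its effect on these read counts is not known.

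Of the proximal kinases and adaptors 36 were tested, and 5.56% were called in JunDKO against 4.97% of all genes, 2.78% in Atf3KO against 12.5%, and 13.9% between JunDKO and Atf3KO against 12.2%. In JunDKO the small GTPase Rac2 fell from 149 to 46.9 RPKM (limma-trend adjusted p = 0.0042) and the scaffold Gab2 rose from 8.85 to 20.3 (adjusted p = 0.00743), and 34 were not called. In Atf3KO only Card9, the adaptor between Syk and NF-kappa B signalling, was called (13.7 to 32.2 RPKM, adjusted p = 0.0192), and in JunKO 0 of 36 were. The medians of 0.16, -0.05 and -0.07 lay near those of all genes.

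Of the inhibitory receptors and phosphatases 31 were tested. In JunDKO 7 of 31 fell, 0 rose and 24 were not called (22.6% called, against 4.97% of all genes), with a median of -0.09 against 0.23. Pilra fell from 74.1 to 3.81 RPKM (limma-trend adjusted p = 2.17e-05), Pirb from 89.2 to 16.4 (adjusted p = 0.000449), Lilrb4a from 554 to 160 (adjusted p = 0.00113) and Siglece from 25.1 to 8.09 (adjusted p = 0.00565), all receptors with inhibitory motifs. In Atf3KO 3 rose, 4 fell and 24 were not called (22.6% called, against 12.5% of all genes), with a median of -0.22. Dok1 (10.3 to 29.0 RPKM, adjusted p = 0.014) and Dok2 (38.7 to 93.5, adjusted p = 0.00897), adaptors that dampen kinase signals, rose, as did Siglec1 (78.3 to 219, adjusted p = 0.00344), an adhesion receptor without an inhibitory motif, and Clec4a2 fell from 26.8 to 8.47 (adjusted p = 0.00223). In JunKO 0 of 31 were called. Of 21 genes of phagocytosis and the oxidase 0 were called in JunDKO or JunKO. In Atf3KO Cyba, a subunit of the phagocyte oxidase, rose from 226 to 608 RPKM (adjusted p = 0.00793).

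The summed level of the 10 macrophage markers was 24260 and 22650 RPKM in Scramble, 33730 and 24690 in Atf3KO, 31440 and 31010 in JunKO, and in the JunDKO pools 18050 and 17430, most of it Lyz2. That of 12 neutrophil markers, in which Elane, Mpo, Ly6g and S100a9 were at 0 in all iBMDM libraries, was 48.6 and 45.1 in Scramble. It was 52.8 and 33.6 in Atf3KO, 37.4 and 34.0 in JunKO, and in the JunDKO pools 25.2 and 23.3. S100a8, the neutrophil marker with the highest level in iBMDMs, was at 0 in both JunDKO libraries. The part of these shifts in the results was not tested. In bulk samples fewer cells of a type and less RNA per cell cannot be told apart.

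TGEM vehicle libraries were set against Scramble to place the immortalised line beside primary macrophages. TGEMs held less Fcgr1 (4.96-fold) and no Trem1 reads in vehicle, and more Fcgr2b (2.96-fold), Fcgr3 (2.64-fold), Tyrobp (2.78-fold) and Trem2 (3.16-fold). limma-trend called 5 of the 9 genes, against 19.9% of the 10929 genes tested, and 8 differed, against 49.9% of all. Origin, immortalisation, oncogenes, label date and the difference in Xist and Ddx3y reads cannot be told apart here. The median of all genes was -0.32 in this comparison, so TGEM levels were lower in general.

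Fcgr1 measured 14.5 RPKM in the C57Bl/6EiJ vehicle and 7.11 in the Balb/cJ vehicle library, against 54.0 and 53.2 in Scramble. All 5 TGEM libraries, at 2.18 to 14.5, lay below all 8 iBMDM libraries, at 53.2 to 93.4. The log2 difference was -2.28 ± 0.19 (SE, limma-trend adjusted p = 2.92e-05) and was called in 25 of 25 alternatives. Fcgr1 held 17.3% and 19.7% of the Fc gamma receptor RPKM in Scramble, and 2.82% and 1.07% in the TGEM vehicle libraries.

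Fcgr2b measured 176 and 115 RPKM in the C57Bl/6EiJ and Balb/cJ vehicle libraries against 49.7 and 48.6 in Scramble (1.52 ± 0.28, limma-trend adjusted p = 0.00219). Fcgr3 measured 247 and 493 against 157 and 123 (1.32 ± 0.21, adjusted p = 0.00118). Both groups were apart for either gene, but the strains stood in opposite order. Without the Balb/cJ vehicle library the difference of Fcgr3 was 0.82 (adjusted p = 0.0332) and not called. Fcgr4, at 76.3 and 50.8 against 51.7 and 45.1, overlapped Scramble and did not pass (0.36 ± 0.22, adjusted p = 0.2).

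Among adaptors, Tyrobp measured 2262 and 1155 RPKM in the C57Bl/6EiJ and Balb/cJ vehicle libraries against 722 and 507 in Scramble (1.42 ± 0.24, limma-trend adjusted p = 0.00138). It lost its call without the C57Bl/6EiJ vehicle library (0.93), after quantile normalization (0.98) and with only the 4 libraries compared in the fit (adjusted p = 0.0631). Fcer1g measured 619 and 879 against 413 and 378 (0.90 ± 0.25, adjusted p = 0.0158), which was short of 2-fold. Trem2 measured 907 and 753 against 299 and 226 (1.66 ± 0.24, adjusted p = 0.000668), and Syk 125 and 97.7 against 55.2 and 54.4 (1.00 ± 0.19, adjusted p = 0.00251). Syk fell just short of the 2-fold limit and was called in 7 of 25 alternatives. For these 4 genes both TGEM vehicle libraries stood above both Scramble libraries.

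Trem1 had 0 reads in the C57Bl/6EiJ vehicle, C57Bl/6EiJ KLA and Balb/cJ vehicle libraries, and 6 and 2 reads in the Balb/cJ KLA libraries. Taking 3 reads over the group as the floor put Scramble 138-fold above TGEM vehicle. The exact 95% interval of that ratio had a lower limit of 111, for counting error only. Over all TGEM libraries, with 110 reads in Scramble and 8 in TGEMs, the ratio of pooled levels was 154, with an exact 95% interval of 75.5 to 366 that covers counting error only. Trem3 was also at 0 in all 5 TGEM libraries.

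Over all genes 7.04% were called higher and 12.8% lower in TGEM vehicle than in Scramble. Of the other receptors coupled to ITAM adaptors or with a hemITAM, 2 of 17 rose in TGEM vehicle and 6 fell, with a median of -1.26 against -0.32 over all genes. Clec7a rose from 45.0 to 574 RPKM (limma-trend adjusted p = 2.17e-05), Clec4e fell from 180 to 8.50 (adjusted p = 1.66e-05) and Clec4n (Dectin-2) from 40.1 to 2.83 (adjusted p = 4.2e-05), and Cd300e was at 46.2 in Scramble and at 0 in TGEMs. Of 5 other Fc receptors only Fcgrt was called (4.88 to 18.1, adjusted p = 0.00253). Of 38 kinases and adaptors 6 rose, among them Lat (0.479 to 27.5) and Lat2 (74.0 to 228), and 6 fell, among them Fyb (150 to 25.6) and Pik3cg (23.0 to 7.33). Of 32 inhibitory receptors and phosphatases 5 rose, among them Cd22 (0.418 to 32.5), and 7 fell, among them Pilra (74.1 to 3.96) and Cd72 (138 to 12.3), and Siglece was at 25.1 and 0. Of 21 phagocytosis genes 3 rose, among them Cyba (226 to 1498) and Lamp1 (469 to 1505), and 6 fell, among them Dock8 (49.9 to 12.7).

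Markers of several other cell types were higher in the TGEM libraries than in iBMDMs. The 7 fibroblast and mesothelial markers summed to 40.8 to 81.0 RPKM in TGEMs and at most 0.643 in iBMDMs, and the 5 B cell markers in the table to 11.2 to 25.2 and at most 0.488. The 8 mast cell and basophil markers, a type that also uses Fcer1g, summed to 2.13 to 19.2 in TGEMs, with Mcpt8 at 0, and at most 0.549 in iBMDMs. The 12 neutrophil markers summed to 20.3 to 51.6 in TGEMs and 23.3 to 52.8 in iBMDMs, with S100a9, Ly6g, Retnlg and Camp at 0 in all libraries of both. The summed T and NK cell, eosinophil and dendritic cell markers stayed at or below 1.94, 4.15 and 2.58 RPKM in TGEMs and 1.62, 6.15 and 0.758 in iBMDMs, and erythroid ones at or below 0.16 and 0.335. Their part in the differences between TGEMs and Scramble was not tested.

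KLA was set against vehicle in TGEMs to see the response of the pathway to 1 h of TLR4 signalling, with strain as a covariate. Of the 8 members tested (Trem1 was below 1 RPKM) limma-trend called 0, against 1.13% of the 10357 genes tested. Fcgr1 stayed under 16 RPKM in all TGEM libraries and so could not be called, here or for the interaction below. 1 of the 8, Fcer1g, had an unadjusted p under 0.05, and limma-voom on recovered reads also called 0. Fcer1g measured 619 RPKM in vehicle and 320 with KLA in C57Bl/6EiJ, and 879 in vehicle and 731 and 430 with KLA in Balb/cJ. Each KLA library lay below the vehicle library of its strain (-0.78 ± 0.31, adjusted p = 0.313).

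The same order held for Fcgr1 (14.5 to 13.1 in C57Bl/6EiJ, 7.11 to 2.18 and 3.18 in Balb/cJ, -0.72 ± 0.31, limma-trend adjusted p = 0.336) and Fcgr3 (247 to 194, and 493 to 339 and 292, -0.52 ± 0.26, adjusted p = 0.389). Fcgr2b (176 to 130, and 115 to 89.8 and 99.6) and Tyrobp (2262 to 1639, and 1155 to 924 and 1135) were likewise lower in each KLA library, with adjusted p of 0.545 and 0.607. Syk was higher in each KLA library (125 to 133, and 97.7 to 153 and 120, 0.30 ± 0.27, adjusted p = 0.626). Trem2 (907 to 762, and 753 to 824 and 625) and Fcgr4 (76.3 to 76.2, and 50.8 to 56.7 and 47.7) did not keep 1 direction. None of these differences exceeded the spread between libraries by the test, and the median of all genes was -0.15.

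In the pathway lists, Clec4e rose with KLA from 8.50 to 110 RPKM (3.25 ± 0.32, limma-trend adjusted p = 0.00297). The other 12 receptors of its list, 6 Fc receptors, 38 kinases and adaptors, 32 inhibitory genes and 21 phagocytosis genes had 0 calls. Within the label date of 14-12-01 in Balb/cJ, Fcgr1 differed by -1.35 and Fcer1g by -0.27, and within that of 15-02-17 in C57Bl/6EiJ by -0.14 and -0.95. The second Balb/cJ KLA library has no vehicle library of its date. The interaction of KLA and strain left 1 residual degree of freedom, and called 0 of 8 members by limma-trend, with 0 at an unadjusted p under 0.05 and the lowest adjusted p, 0.701, for Fcgr1.

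Balb/cJ was set against C57Bl/6EiJ over the 5 TGEM libraries with treatment as a covariate. limma-trend called 0 of 8 members, against 1.16% of all genes, with 3 at an unadjusted p under 0.05 (Fcgr1, Fcgr3 and Tyrobp) and 0 called by limma-voom. Fcgr1 was 2.18, 3.18 and 7.11 RPKM in Balb/cJ and 13.1 and 14.5 in C57Bl/6EiJ, without overlap (-1.52 ± 0.31, adjusted p = 0.0535, 0.00243 to 0.259 over the alternatives). It was under 16 RPKM in both strains and could not be called. Fcgr3 was 292 to 493 in Balb/cJ and 194 and 247 in C57Bl/6EiJ (0.82 ± 0.26, adjusted p = 0.141), and Tyrobp 924 to 1155 against 1639 and 2262 (-0.80 ± 0.26, adjusted p = 0.144). Neither pair overlapped. Fcgr3 over Fcgr2b was 2.94 to 4.29 in Balb/cJ and 1.40 and 1.49 in C57Bl/6EiJ. Strain, label date and the genome used for alignment cannot be told apart.

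From the lists, Pira6, a paired immunoglobulin-like receptor of a family of near-identical copies, was higher in Balb/cJ (72.3 against 7.28 RPKM, 3.19 ± 0.30, limma-trend adjusted p = 0.00325), and Cd300ld was lower (36.8 against 142, adjusted p = 0.0276). Siglec1 was lower (2.01 against 18.5, adjusted p = 0.00201) and Cd33 higher (23.8 against 4.60, adjusted p = 0.0322). No gene of the other 3 lists was called between strains. The alignment of Balb/cJ reads to their own strain genome can shift counts of such families.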

How the data were processed

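Expression of 13 polyA libraries was analysed, with 4 GRO-seq samples left out as not analysed here. The values are RPKM as deposited. Per the labels and the table's header, the authors aligned reads with STAR (mm10, and a custom genome for the Balb/cJ strain) and counted exons with HOMER with genes condensed. Versions and a strand option are not given in the sources used here. Whole reads were recovered from the steps of the RPKM values.

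log2(RPKM + 1) of genes averaging 1 RPKM or more in the fitted libraries was fitted with limma-trend (limma 3.58.1, R 4.3.3). The 8 iBMDM libraries had a coefficient for each group, the 5 TGEM libraries terms for treatment and strain, and TGEM vehicle was set against Scramble in a fit of all 13. Tests were two-sided. Fold changes on this scale understate those of low genes. Scripts were tested on simulated data. The members, lists and tests were chosen with earlier results of these data known. Named list genes were at most 4 called genes a list and comparison, those with the largest difference, and the most similar genes the 3 of highest r. Alternatives were other pseudocounts, filters, scalings, GC and length corrections, limma-voom, other sample sets and each library left out. Some results are not reported here.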

Additional observations from a re-analysis of the deposited data

How the results depend on the processing

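No member called in any setting changed direction. Of 193 counts of called members under an alternative, 176 stayed within 1.5 times the main count. In Atf3KO against Scramble the count of 1 became 2 without the 16 RPKM limit and 0 at a log2 limit of 2, and was 1 to 2 with single libraries left out. In JunDKO against Scramble the count of 1 became 2 at equal library medians, 3 after quantile normalization, 2 without the RPKM limit, 0 at a log2 limit of 2, and 0 to 1 with single libraries left out. In JunDKO against JunKO the count of 0 became 1 after quantile normalization (Trem2) and 1 without the RPKM limit (Trem1). In JunDKO against Atf3KO it became 1 at equal medians (Fcer1g), 1 with the GC trend removed (Trem2), and 0 to 1 with libraries left out. In Atf3KO against JunKO it became 1 without the RPKM limit (Trem1), and 0 to 1 with libraries left out (Fcgr2b without Atf3KO replicate 2). In TGEM vehicle against Scramble the count of 5 became 1 at a log2 limit of 2 and was 5 to 6 with libraries left out. The cause was not tested, except that limits on fold and RPKM act by construction.

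Of 1698 single-gene values under an alternative, 40 changed sign without being called in either setting. Removing the GC trend lowered the genes called in Atf3KO over all genes from 1339 to 815 and raised those in JunKO from 21 to 58. Without a library that leaves 1 in a group, the lone library is assumed to vary like the others. The interaction could not be fitted with any library left out, and its 6 alternatives, added after the data were seen, each called 0 members. With the replicate number as a replicate block, 1 member was called in Atf3KO, 0 in JunKO and 1 in JunDKO, and no call changed. The adjusted p crossed 0.05 for Fcgr2b in Atf3KO against Scramble (0.045), Fcgr3 in JunDKO against Atf3KO (0.0331) and Fcgr1 in Atf3KO against JunKO (0.0655). Across 10691 genes, deviations of same-numbered libraries correlated with r of 0.185 to 0.225 among Scramble, JunKO and JunDKO, which share a date, and of -0.215 to -0.12 between Atf3KO and these. The labels give no pairing, and whether the numbers mark a shared batch in the former groups is not known. Libraries of 1553296 to 1929988 reads limit Trem1 most.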

Other observations

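Neighbours of the receptor cluster on chromosome 1 were read for the loci within 100 kb. Ufc1, 54215 bases from Fcer1g, measured 99.3 RPKM in Atf3KO and 45.1 in Scramble (log2 difference 1.12 ± 0.22, limma-trend adjusted p = 0.00605), and was the only neighbour called in Atf3KO against Scramble. Dedd (-0.99, adjusted p = 0.0149), Dusp12 (-1.22, adjusted p = 0.0257), and Nfya (-0.77, adjusted p = 0.0107) and A530064D06Rik (-1.21, adjusted p = 0.0178) near the TREM genes, were lower in Atf3KO without being called. A530064D06Rik was also lower in JunDKO than in Scramble (0.086 and 5.05 RPKM, -2.48, adjusted p = 0.00218). Fcrla and Fcrlb, Fc receptor-like genes next to Fcgr2b, stayed at or below 2.95 RPKM in every group. Atf6, 92788 bases from Fcgr2b, was higher in JunDKO than in Scramble (31.6 and 18.0 RPKM, 0.78, adjusted p = 0.0387) without being called. B430306N03Rik, a gene between Trem1 and Trem2, was lower in JunDKO than in Scramble (1.76 and 10.6 RPKM, -2.22, adjusted p = 0.0131) and higher in TGEM vehicle than in Scramble (47.5 RPKM, 2.07, adjusted p = 0.00433).

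Over the 8 iBMDM libraries, the genes with the pattern most like each member, among those averaging 16 RPKM or more in these libraries together, were listed by Pearson's r of log2(RPKM + 1), as a description among 4200 genes over libraries that come in pairs of the same group. For Fcgr3 they were Mrc1 (0.966), the mannose receptor, F13a1 (0.959) and Lgmn (0.952), the lysosomal protease legumain. Mrc1 measured 1.18 and 0.995 RPKM in Scramble, between 12.2 and 16.4 in the Atf3KO and JunKO libraries, and 62.7 and 63.2 in JunDKO. For Syk they were Plxna1 (0.976), Slc11a1 (0.976), the phagosomal metal transporter, and Ezr (0.969). For Fcer1g they were Tmem97 (0.986), Ptpmt1 (0.984) and Tor2a (0.977), for Trem2 Numa1 (0.992), Rgs19 (0.973) and Prmt7 (0.972), and for Fcgr4 Lst1 (0.97), Osbp (0.958) and Orc5 (0.944). For Fcgr2b they were Mtfr1l (0.961), Srgap2 (0.955) and Prdx3 (0.946), for Tyrobp Snrpd2 (0.954), Pi4ka (0.947) and Sumo3 (0.945), and for Fcgr1 Trappc4 (0.874), Pdzd11 (0.834) and Cstf3 (0.816). Fcgr1 thus had the least similar nearest genes of the 8.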
